A study of Mus musculus with 11 samples.

Results

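The 9 genes Csf1r, Ly6c2, Itgam, Ccr2, Cd14, Klf4, F13a1, Ms4a6c and Fcgr1 are commonly used to mark monocytes. They were found in the table of estimated counts by matching its Ensembl identifiers to these symbols. They are 9 of 55487 genes measured, and all 9 were among the 14521 genes that passed the filter on low counts. The samples were acute myeloid leukaemias (AML) from mice carrying Flt3-ITD, an internal tandem duplication that activates a cytokine receptor, and NHD13, a NUP98-HOXD13 fusion transgene. All 11 samples shared these alleles. Bulk RNA sequencing was done on 6 AML heterozygous for Ifnar1 (Ifnar1 +/-) and on 5 with both copies disrupted (Ifnar1 -/-). Ifnar1 encodes a subunit of the type I interferon receptor, and the series asks how far such leukaemias depend on interferon. No group had wild-type Ifnar1, and none lacked Flt3-ITD or NHD13. The labels call the material AML while the series' design text speaks of HPCs, and the sources used here do not give the animals' ages, any sort of the cells or whether each sample is a different mouse. P-values therefore measure only the spread between these samples, which may be technical.

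Monocytes are blood phagocytes that arise in the marrow from myeloid progenitors and replenish macrophages in tissues. Their growth depends on signals through the receptor encoded by Csf1r, their exit from the marrow on the chemokine receptor encoded by Ccr2, and their sensing of bacteria and antibody on surface proteins such as those of Cd14 and Fcgr1. PU.1 (Spi1) and C/EBP factors switch on many of these genes during myeloid differentiation. Several of the genes are shared with other myeloid cells: Itgam and Ly6c2 are also used by maturing granulocytes.

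The DNA just upstream of these genes is shown because a PU.1-type word occurred in the windows of 4 members. The windows hold the 250 bases before a start listed in RefSeq on GRCm38.p6, where 7 of the 9 members had an entry. Ly6c2 and F13a1 had 2 starts listed, and the one nearest the gene start in GENCODE M21 was used. They are written 5′ to 3′ on the gene's own strand, with matches in capitals. Words were searched on both strands. The PU.1-type word was GAGGAA, which reads TTCCTC on the other strand. The C/EBP word was TTGCNNAA, and that of interferon-gamma-activated sites was TTCNNNGAA. The Itgam window lies at chr7:128062390-128062639 on the plus strand, that of Ly6c2 at chr15:75111972-75112221, that of F13a1 at chr13:37050245-37050494 and that of Fcgr1 at chr3:96293970-96294219, the last 3 on the minus strand.
Itgam: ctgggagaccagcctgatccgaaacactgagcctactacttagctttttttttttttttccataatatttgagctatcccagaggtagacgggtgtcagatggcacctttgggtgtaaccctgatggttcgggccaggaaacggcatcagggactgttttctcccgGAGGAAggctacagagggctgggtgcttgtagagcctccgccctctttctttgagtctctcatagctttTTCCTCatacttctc
Ly6c2: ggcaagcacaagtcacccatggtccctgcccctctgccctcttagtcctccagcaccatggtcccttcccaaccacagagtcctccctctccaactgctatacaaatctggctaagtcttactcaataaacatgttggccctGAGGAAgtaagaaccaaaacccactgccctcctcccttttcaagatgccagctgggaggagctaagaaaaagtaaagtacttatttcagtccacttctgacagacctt
F13a1: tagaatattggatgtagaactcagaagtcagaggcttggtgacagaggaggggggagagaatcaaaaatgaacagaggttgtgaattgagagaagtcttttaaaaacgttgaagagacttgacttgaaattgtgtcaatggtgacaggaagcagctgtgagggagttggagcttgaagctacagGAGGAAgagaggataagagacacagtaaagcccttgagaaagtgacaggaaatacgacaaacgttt
Fcgr1: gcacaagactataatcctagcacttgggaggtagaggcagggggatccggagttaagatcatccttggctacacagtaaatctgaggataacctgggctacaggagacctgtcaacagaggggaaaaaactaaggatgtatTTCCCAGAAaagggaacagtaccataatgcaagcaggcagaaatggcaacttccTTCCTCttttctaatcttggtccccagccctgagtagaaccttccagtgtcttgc
Counted back from the start, GAGGAA lay 84 to 79 bases before that of Itgam and again on the other strand 15 to 10 bases before it, 108 to 103 bases before that of Ly6c2, 66 to 61 before that of F13a1 and, on the other strand, 55 to 50 before that of Fcgr1. Over all 27025 windows of this length, taken at the first start listed for each gene, 23.1% held that word. The C/EBP word was in 0 of the 7 windows and in 9.55% of all windows. The interferon-gamma-activated-site word was in the Fcgr1 window only, 109 to 101 bases before the start, and in 7.18% of all windows. The PU.1-type and interferon words had no bases in common in these windows. A match is a description of letters and shows no binding.

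The libraries held 25583642 to 38728143 estimated counts each. Levels are in CPM, counts relative to the library's total after TMM scaling. Ifnar1 transcript ran from 39.3 to 84.5 CPM in Ifnar1 +/- AML and from 36.3 to 133 CPM in Ifnar1 -/- AML (log2 fold change 0.18, SE 0.34, edgeR adjusted p = 0.9998), so it did not separate the labels. Libraries are named by genotype and number. Ifnar1 -/- library 2 stood apart: it had the highest level of 21.0% of all genes tested, and its summed neutrophil markers (12 genes) reached 40224 CPM and its summed eosinophil markers (10 genes) 68518 CPM. In the other 10 libraries these sums ran up to 7968 and 2024 CPM. Ebf1, a transcription factor of early B cells, divided the libraries at its widest gap into 5 with 530.7 to 745 CPM (Ifnar1 +/- libraries 3, 4 and 5 and Ifnar1 -/- libraries 3 and 5) and 6 with at most 8.72 CPM. The 10 B-lineage markers summed to 8791 to 12028 CPM in the first 5 and to 18.4 to 171 CPM in the other 6, so libraries with one AML label differed in lineage genes.

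**Figure D1:**
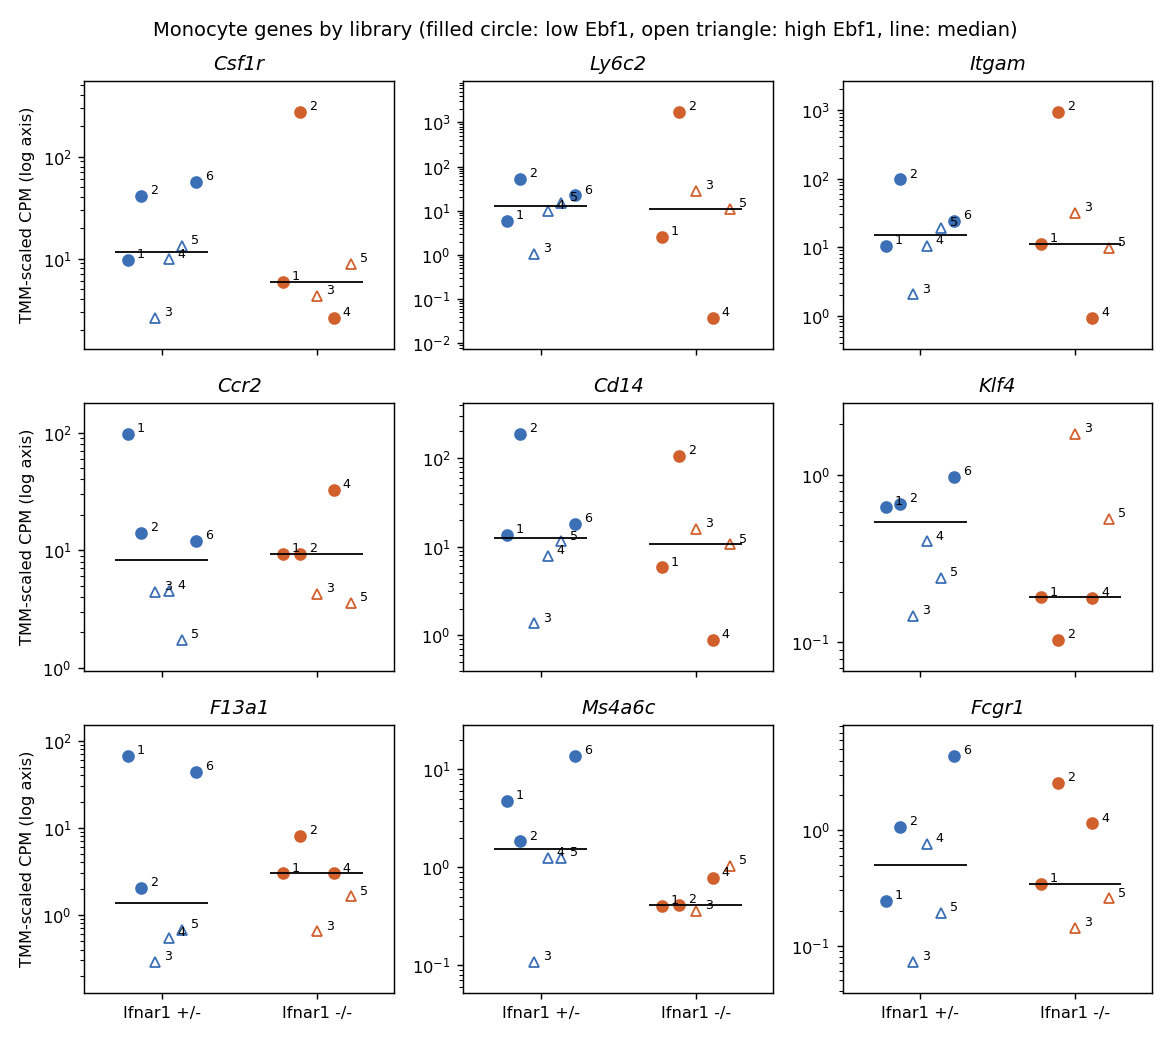
TMM-scaled CPM of the 9 monocyte genes (log axis) in each library, by Ifnar1 genotype; each point is a library with its number, filled circles are libraries with low Ebf1, open triangles libraries with high Ebf1, and the line is the median of the genotype. Ifnar1 -/- library 2 is the highest point for Csf1r, Ly6c2 and Itgam, while Ccr2 and F13a1 are highest in Ifnar1 +/- library 1, and the genotypes overlap in all 9 panels.

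Across the set, the monocyte genes did not differ between genotypes by the test over all genes. In edgeR's quasi-likelihood test 0 of 9 members passed an adjusted p of 0.05, against 0.00% of the 14521 genes tested. Of all genes 289 had an unadjusted p under 0.05. DESeq2 called 3 genes and limma voom 0, with no member among them. The adjusted p was 0.9998 for each member. Unadjusted p under 0.05 was reached by 2 members, Ly6c2 and Ms4a6c, beside 1.99% of all genes. Fitted values were lower in Ifnar1 -/- AML for 5 members and higher for 4, and 51.7% of all genes were lower. The median log2 fold change of the members was -0.35 and that of all genes -0.01. Without Ifnar1 -/- library 2, 8 of 9 members were lower and 1 higher, with 54.3% of 14948 genes lower. The median of the members was then -1.28 and that of all genes -0.03, with 0 members and 0 genes called. For 0 members did the genotypes' libraries separate without overlap, beside 0.124% of all genes. In bulk RNA, fewer monocytes and less of a transcript per cell cannot be told apart.

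The monocyte label was not borne out by a library in which all members were high. Csf1r, Ly6c2 and Itgam were highest in Ifnar1 -/- library 2, Ccr2 and F13a1 in Ifnar1 +/- library 1, Ms4a6c and Fcgr1 in Ifnar1 +/- library 6, Cd14 in Ifnar1 +/- library 2 and Klf4 in Ifnar1 -/- library 3. Thus 3 of 9 members peaked in Ifnar1 -/- library 2, which held the peak of 21.0% of all genes. Levels of some members were low in every library: Fcgr1 was at most 4.42 CPM, Ms4a6c at most 13.8 CPM and Klf4 at most 1.75 CPM. The genes are therefore treated as a list and not as a measure of monocyte number. Per kilobase of exon, the median CPM over 11 libraries fell in the order Cd14 (6.65), Ly6c2 (4.10), Itgam (2.19), Csf1r (1.69), Ccr2 (1.38), Ms4a6c (0.499), F13a1 (0.302), Klf4 (0.131) and Fcgr1 (0.131). The ranges over libraries of all neighbours in that order overlapped.

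Csf1r (ENSMUSG00000024621, chr18:61100598-61132149, plus strand) encodes the receptor tyrosine kinase for the growth factors of macrophages. Its level in Ifnar1 -/- libraries 1 to 5 was 5.93, 274, 4.30, 2.62 and 8.86 CPM. Ifnar1 +/- libraries ran from 2.59 CPM in library 3 through a median of 11.5 to 56.7 CPM in library 6, with 40.9 CPM in library 2. Outside Ifnar1 -/- library 2, the 4 other Ifnar1 -/- libraries lay at or below 8.86 CPM, within the range of the Ifnar1 +/- libraries. The means were 22.2 ± 21.5 (SD, n = 6) and 59.2 ± 120 CPM (SD, n = 5). The log2 fold change was 1.42 (SE 1.26) with all libraries and -2.03 (SE 0.82, edgeR unadjusted p = 0.0337, adjusted p = 0.9999) without Ifnar1 -/- library 2. Of the 50-base words in its exons 14.3% also occur in the antisense neighbour Hmgxb3, which was at 7.47 to 27.0 CPM, and without strand information such reads cannot be told apart.

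Of the 2 ligands of this receptor, Csf1 passed the filter and Il34 did not. Csf1 was at 163 CPM in Ifnar1 +/- library 2 and 78.5 CPM in Ifnar1 -/- library 2, with 6.41 to 55.2 CPM elsewhere. Its log2 fold change was -0.33 (SE 0.94), and -0.92 (SE 0.99) without Ifnar1 -/- library 2. Both libraries with the most Csf1 were among the 3 with the most Csf1r, beside Ifnar1 +/- library 6, which had 20.5 CPM of Csf1.

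Itgam (ENSMUSG00000030786, chr7:128062640-128118491, plus strand) encodes the alpha chain of the Mac-1 integrin, an adhesion receptor of monocytes, neutrophils and other granulocytes. The Ifnar1 -/- values were 11.03, 931, 31.5, 0.922 and 9.72 CPM for libraries 1 to 5. In Ifnar1 +/- AML the lowest was 2.05 CPM in library 3, the median 14.9 and the highest 97.1 CPM in library 2. Ifnar1 -/- library 2 alone held 81.1% of the summed CPM of the 11 libraries, and the other 10 overlapped across genotypes. Means were 27.2 ± 35.1 (SD, n = 6) and 197 ± 411 CPM (SD, n = 5). The log2 fold change of 2.85 (SE 1.53) became -1.01 (SE 1.06) without that library. Of its 50-base exon words 66.3% are shared with the overlapping gene model Gm49368 on the same strand, which received at most 2.27 CPM, so the split of reads between them is uncertain.

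Itgb2, which encodes the beta chain that pairs with Itgam, was highest in the same libraries as Itgam. These were Ifnar1 -/- library 2 and then Ifnar1 +/- library 2. Over the other libraries Itgb2 followed another order. Itgb2 reached 3275 CPM in Ifnar1 -/- library 2 and 339 to 594 CPM in the 5 other libraries with low Ebf1, against 142 to 194 CPM in the 5 with high Ebf1. Its log2 fold change by genotype was 1.64 (SE 0.78), and 0.25 (SE 0.52) without Ifnar1 -/- library 2.

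Ly6c2 (ENSMUSG00000022584, chr15:75108158-75111970, minus strand) encodes the surface protein detected as Ly6C on classical inflammatory monocytes. In Ifnar1 -/- libraries 1 to 5 it was at 2.59, 1724, 28.3, 0.0369 and 11.2 CPM, the fourth of these values being 1 count. Ifnar1 +/- AML ran from 1.04 CPM in library 3 through a median of 12.5 to 53.3 CPM in library 2. This was the widest spread of the 9 members: 92.0% of the summed CPM came from Ifnar1 -/- library 2, and the lowest value was in the same genotype. Means were 17.9 ± 18.8 (SD, n = 6) and 353 ± 766 CPM (SD, n = 5). The log2 fold change was 4.30 (SE 1.91, edgeR unadjusted p = 0.0463) with that library and -0.74 (SE 1.28) without it. The related gene Ly6c1 shares 13.9% of the 50-base words of Ly6c2, and it was at most 10.2 CPM, in Ifnar1 +/- library 6, and at 3.15 CPM in Ifnar1 -/- library 2.

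Cd14 (ENSMUSG00000051439, chr18:36725067-36726798, minus strand) encodes the co-receptor that hands bacterial lipopolysaccharide to the Tlr4 complex. It was at 5.84, 105, 15.9, 0.885 and 10.7 CPM in Ifnar1 -/- libraries 1 to 5. Among Ifnar1 +/- AML, library 3 was lowest with 1.37 CPM, the median was 12.6 and library 2 was highest with 188 CPM. Each genotype thus had a single high library, and the other 9 lay between 0.885 and 18.0 CPM. Means were 40.05 ± 72.6 (SD, n = 6) and 27.6 ± 43.6 CPM (SD, n = 5). The log2 fold change was -0.54 (SE 1.30), -2.23 (SE 1.32) without Ifnar1 -/- library 2 and 1.40 without Ifnar1 +/- library 2.

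Neither Tlr4 nor Myd88, signalling partners of Cd14, was highest in a library where Cd14 was high. Tlr4, the receptor itself, was at most 19.6 CPM, in Ifnar1 +/- library 4, and at 0.568 CPM in Ifnar1 -/- library 2. It was higher in all 5 libraries with high Ebf1 (6.63 to 19.6 CPM) than in the 6 others (0.184 to 5.98 CPM). Myd88, the adaptor downstream of Tlr4, went the other way, at 50.3 to 70.2 CPM with high Ebf1 and 112 to 236 CPM with low Ebf1. After Ifnar1 +/- library 6 (236 CPM), Myd88 was next highest in the libraries with most Cd14. These were Ifnar1 -/- library 2 (195 CPM) and Ifnar1 +/- library 2 (190 CPM).

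**Figure D2:**
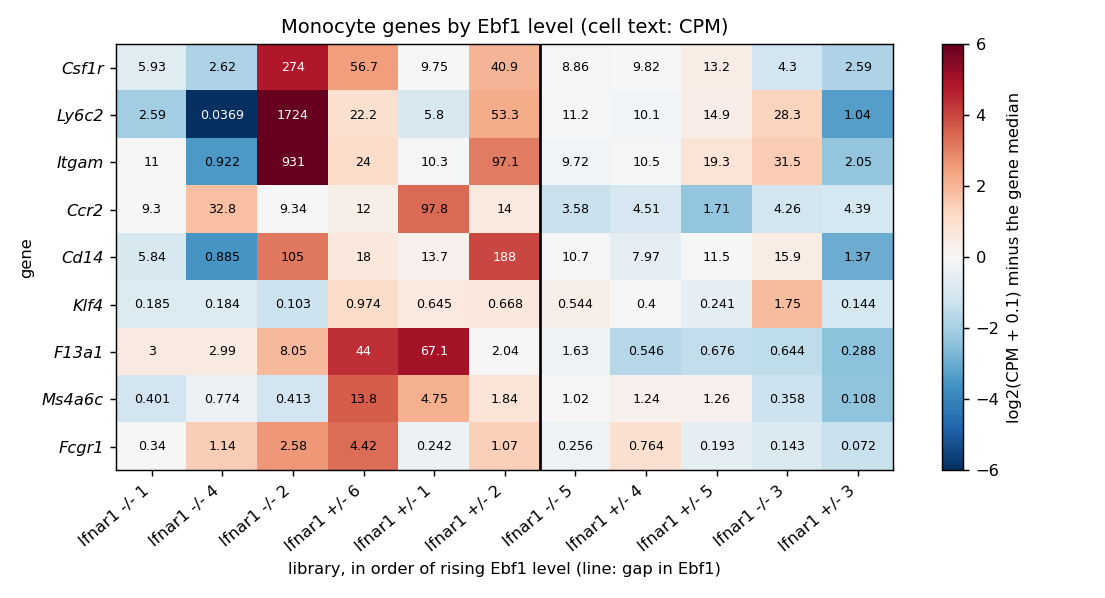
Levels of the 9 monocyte genes (rows) in the 11 libraries (columns, in order of rising Ebf1 level, with a line at the Ebf1 gap); colour is log2(CPM + 0.1) minus the gene's median and the printed cell value is CPM. Ccr2 and F13a1 are at most 4.51 and 1.63 CPM in the 5 libraries right of the line and at least 9.30 and 2.04 CPM in the 6 libraries left of it.

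Ccr2 (ENSMUSG00000049103, chr9:124101950-124113557, plus strand) encodes the receptor for Ccl2 and related chemokines that draw monocytes out of the marrow. Its values in Ifnar1 +/- libraries 1 to 6 were 97.8, 14.0, 4.39, 4.51, 1.71 and 12.0 CPM. Those in Ifnar1 -/- libraries 1 to 5 were 9.30, 9.34, 4.26, 32.8 and 3.58 CPM. Ifnar1 -/- library 2, where Ly6c2 and Itgam peaked, was in the middle of the range for Ccr2. Means were 22.4 ± 37.3 (SD, n = 6) and 11.9 ± 12.0 CPM (SD, n = 5), with a log2 fold change of -0.92 (SE 1.03), or -0.82 without Ifnar1 -/- library 2. Without Ifnar1 +/- library 1 it turned to 0.69.

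Ccl2 was at 102 CPM in Ifnar1 +/- library 1 and 83.5 CPM in Ifnar1 -/- library 4, the 2 libraries with the most Ccr2. It lay between 0.361 and 34.6 CPM in the other 9. Its log2 fold change was -0.54 (SE 1.38), and -0.21 (SE 1.35) without Ifnar1 -/- library 2. Mast cell and basophil markers (8 genes) were also highest in these 2 libraries. They summed to 8103 and 5725 CPM there, against at most 3036 CPM elsewhere. So did the 7 megakaryocyte markers peak there, with sums of 2725 and 1889 CPM against at most 1065 CPM elsewhere. The part of either list in the level of Ccr2 was not tested.

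F13a1 (ENSMUSG00000039109, chr13:36867178-37050244, minus strand) encodes the A chain of coagulation factor XIII, a transglutaminase that crosslinks fibrin and is made by monocytes, macrophages and megakaryocytes. Its Ifnar1 +/- values were 67.1, 2.04, 0.288, 0.546, 0.676 and 44.0 CPM for libraries 1 to 6. In Ifnar1 -/- libraries 1 to 5 it was at 2.996, 8.05, 0.644, 2.99 and 1.63 CPM. Only Ifnar1 +/- libraries 1 and 6 exceeded 8.05 CPM, and the remaining 4 of that genotype were below most Ifnar1 -/- libraries. Means were 19.1 ± 29.2 (SD, n = 6) and 3.26 ± 2.85 CPM (SD, n = 5), while the medians had the opposite order, 1.36 and 2.99 CPM. The log2 fold change of edgeR, which compares fitted mean counts, was -2.55 (SE 1.46), or -3.21 (SE 1.67) without Ifnar1 -/- library 2. In limma voom, which fits log2 values, it was 1.20. The 7 megakaryocyte markers summed to 2725 CPM in Ifnar1 +/- library 1 and 1065 CPM in Ifnar1 +/- library 6, and to 1889 CPM in Ifnar1 -/- library 4, where F13a1 was at 2.99 CPM. Their part in the level of F13a1 was not tested.

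Ms4a6c (ENSMUSG00000079419, chr19:11469366-11482192, plus strand) encodes a membrane protein of the Ms4a family found on monocytes and macrophages. It was at 0.401, 0.413, 0.358, 0.774 and 1.02 CPM in Ifnar1 -/- libraries 1 to 5, from 8 to 32 counts. Ifnar1 +/- AML ran from 0.108 CPM in library 3 through a median of 1.55 to 13.8 CPM in library 6, and 5 of its 6 libraries exceeded every Ifnar1 -/- library. Means were 3.83 ± 5.12 (SD, n = 6) and 0.594 ± 0.293 CPM (SD, n = 5). The log2 fold change was -2.68 (SE 0.98, edgeR unadjusted p = 0.0202, adjusted p = 0.9998), and -2.58 (SE 1.12, unadjusted p = 0.0448) without Ifnar1 -/- library 2. With Csf1r it made up the 2 members with an unadjusted p under 0.05 in that fit, beside 1.42% of all genes. The antisense gene model BE692007 shares 49.6% of its 50-base words and Ms4a6b 5.85%, with at most 0.487 and 2.82 CPM.

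Fcgr1 (ENSMUSG00000015947, chr3:96282909-96293969, minus strand) encodes the high-affinity receptor for immunoglobulin G, which interferon gamma induces in monocytes. It was at 0.340, 2.58, 0.143, 1.14 and 0.256 CPM in Ifnar1 -/- libraries 1 to 5. In Ifnar1 +/- AML the lowest value was 0.0720 CPM in library 3 (2 counts), the median 0.503 and the highest 4.42 CPM in library 6 (136 counts). Both genotypes held libraries at a few counts and a single library above 2 CPM. Means were 1.13 ± 1.66 (SD, n = 6) and 0.892 ± 1.02 CPM (SD, n = 5), with a log2 fold change of -0.35 (SE 1.07), -1.28 (SE 1.13) without Ifnar1 -/- library 2 and 0.92 without Ifnar1 +/- library 6.

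Fcer1g, the signalling chain that carries Fcgr1 to the surface, was far more abundant, from 96.2 to 1246 CPM. It was at 96.2 to 146 CPM in the libraries with high Ebf1 and at 281 CPM or more in those with low Ebf1. Of the 5 Fc receptor genes related to Fcgr1, Fcgr3 reached 1359 CPM in Ifnar1 -/- library 2 and at most 139 CPM elsewhere. In that list 1 was lower and 4 higher in Ifnar1 -/- AML (median log2 fold change 0.67), and 5 of 5 were lower without that library (median -1.18), with 0 called. The median of -1.18 is the value of Fcgr3. Fcgr3 is also in the list of further monocyte and macrophage genes below, where it again gives the median.

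Klf4 (ENSMUSG00000003032, chr4:55527143-55532466, minus strand) encodes a zinc-finger transcription factor needed for monocyte differentiation. It was at 0.185, 0.103, 1.75, 0.184 and 0.544 CPM in Ifnar1 -/- libraries 1 to 5, which is 2 to 49 counts. Ifnar1 +/- AML ran from 0.144 CPM in library 3 through a median of 0.522 to 0.974 CPM in library 6. Ifnar1 -/- library 2, highest for 3 members, was lowest for Klf4. Means were 0.512 ± 0.309 (SD, n = 6) and 0.554 ± 0.692 CPM (SD, n = 5), with a log2 fold change of 0.12 (SE 0.76), or 0.39 (SE 0.76) without Ifnar1 -/- library 2. It was the member that stayed higher in that fit, and without Ifnar1 -/- library 3 its log2 fold change was -0.97.

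**Figure D3:**
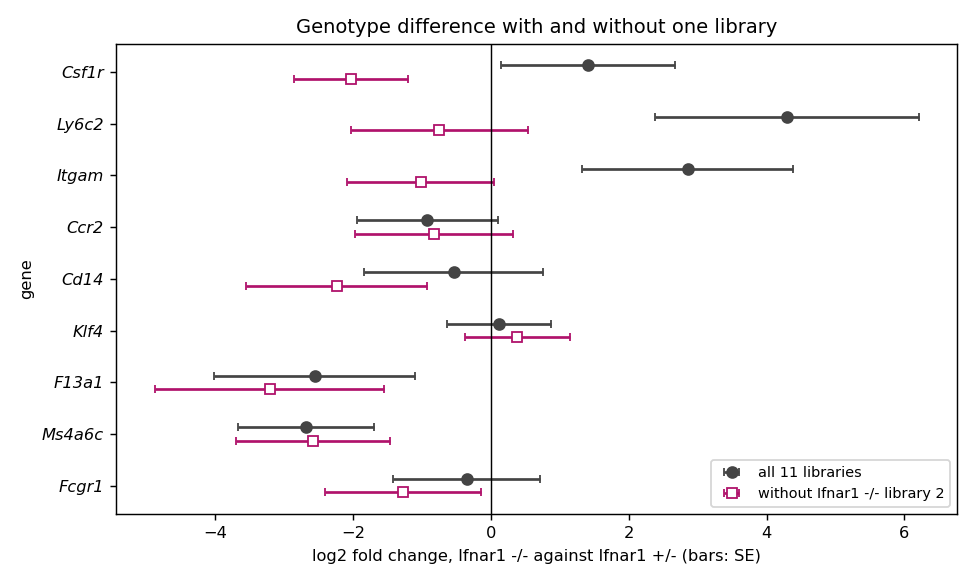
Log2 fold change of Ifnar1 -/- against Ifnar1 +/- AML for the 9 monocyte genes from edgeR (x axis), with all 11 libraries (filled circles) and without Ifnar1 -/- library 2 (open squares); bars are 1 SE. Csf1r moves from 1.42 to -2.03, Ly6c2 from 4.30 to -0.74 and Itgam from 2.85 to -1.01, while Ccr2, Klf4 and Ms4a6c move by less than 0.3.

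By Ebf1 level, which comes from the data and so supports description only, Ccr2 and F13a1 separated without overlap. Ccr2 was 1.71 to 4.51 CPM in the 5 libraries with high Ebf1 and 9.30 to 97.8 CPM in the 6 with low Ebf1. F13a1 was 0.288 to 1.63 CPM and 2.04 to 67.1 CPM. These 2 of 9 members were lower in all libraries with high Ebf1, beside 9.0% of all genes, and 0 members were higher in all of them, beside 12.1%. Fcgr1 overlapped, at 0.0720 to 0.764 CPM with high Ebf1 and 0.242 to 4.42 CPM with low Ebf1. Its CPM in Ifnar1 +/- library 4 (21 counts) and Ifnar1 -/- library 5 (8 counts), with high Ebf1, exceeded that in Ifnar1 +/- library 1 (6 counts). Ly6c2, Itgam and Cd14 did not follow Ebf1: the libraries with low Ebf1 included both the highest and the lowest value of each of them, from 0.0369 to 1724 CPM for Ly6c2, and those with high Ebf1 lay between.

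Within the 6 libraries with low Ebf1, 3 of each genotype, 2 members did not overlap between genotypes, beside 7.36% of all genes. Klf4 was at 0.645 to 0.974 CPM (16 to 30 counts) in Ifnar1 +/- and 0.103 to 0.185 CPM (2 to 6 counts) in Ifnar1 -/- AML. Ms4a6c was at 1.84 to 13.8 CPM in Ifnar1 +/- and 0.401 to 0.774 CPM in Ifnar1 -/- AML. Among the 5 libraries with high Ebf1, 3 Ifnar1 +/- and 2 Ifnar1 -/-, Klf4 was the member without overlap, beside 16.3% of all genes, and there the order was the opposite, 0.144 to 0.400 CPM in Ifnar1 +/- and 0.544 to 1.75 CPM in Ifnar1 -/- AML. These were 4, 11 and 10 counts of Klf4 in Ifnar1 +/- libraries 3, 4 and 5, and 49 and 17 counts in Ifnar1 -/- libraries 3 and 5. The difference between the 2 orders of Klf4 was not tested.

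How the members varied together is given as Spearman's rho over all 11 libraries, over the 10 without Ifnar1 -/- library 2 and over the 6 with low Ebf1. It is a description only, since the libraries share lineage differences. Ly6c2 had rho of 0.92, 0.89 and 0.94 with Itgam, 0.93, 0.92 and 0.94 with Cd14, and 0.75, 0.67 and 0.94 with Csf1r. Against Ccr2 the rho of Ly6c2 was -0.13, -0.25 and -0.26. Other pairs were high over some of these sets only. Ccr2 and F13a1 had 0.70, 0.68 and 0.14, and Csf1r and Ms4a6c 0.65, 0.89 and 0.26. Klf4 had 0.50, 0.90 and 0.31 with Cd14 and 0.38, 0.84 and 0.09 with Ly6c2.

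A neutrophil gene gave values as high, and an eosinophil gene gave lower ones. Ngp, a secondary granule gene of neutrophils, had a rho of 0.98 with Ly6c2, 0.93 with Itgam, 0.93 with Cd14 and 0.84 with Csf1r. Without Ifnar1 -/- library 2 these were 0.98, 0.90, 0.92 and 0.78. Over 11 libraries its rho was 0.38 with Fcgr1, 0.36 with Klf4, 0.34 with Ms4a6c, 0.17 with F13a1 and -0.05 with Ccr2. Leaving out that library gave 0.20 for Fcgr1, 0.82 for Klf4, 0.54 for Ms4a6c, 0.006 for F13a1 and -0.16 for Ccr2. The level of Ngp ran from 0.147 CPM in Ifnar1 -/- library 4 to 24050 CPM in Ifnar1 -/- library 2. Prg2, an eosinophil marker, had a rho of 0.73 with Ly6c2, 0.62 with Itgam, 0.60 with Cd14 and 0.59 with Csf1r. Without Ifnar1 -/- library 2 these were 0.64, 0.49, 0.48 and 0.45. Cpa3, a mast cell protease, had a rho of 0.71 with Ccr2, 0.68 with Ms4a6c and 0.53 with F13a1. Without Ifnar1 -/- library 2 these were 0.81, 0.61 and 0.66. Its rho was 0.48 with Fcgr1, 0.23 with Klf4, 0.15 with Csf1r, -0.08 with Cd14, -0.28 with Itgam and -0.31 with Ly6c2. Leaving out that library gave 0.68, 0.10, 0.32, 0.03, -0.18 and -0.21. Ngp, Prg2 and Cpa3 were singled out after their values were seen.

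**Figure D4:**
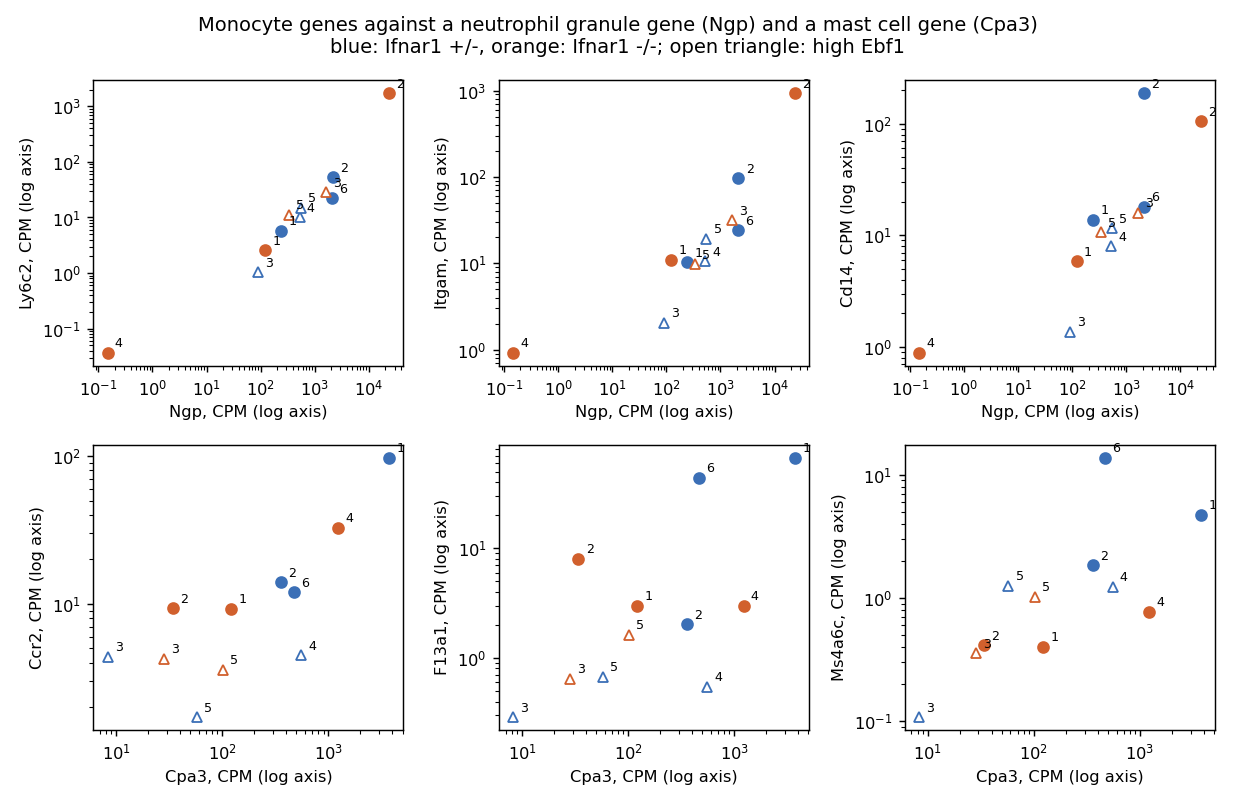
Levels (CPM, log axes) of Ly6c2, Itgam and Cd14 against Ngp, a neutrophil granule gene, and of Ccr2, F13a1 and Ms4a6c against Cpa3, a mast cell gene; each point is a library with its number, blue for Ifnar1 +/- and orange for Ifnar1 -/-, and open triangles have high Ebf1. Ly6c2, Itgam and Cd14 rise with Ngp from Ifnar1 -/- library 4 to Ifnar1 -/- library 2 or Ifnar1 +/- library 2, whereas F13a1 and Ms4a6c are more scattered against Cpa3.

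Across all genes, the 3 most like each member over 11 libraries were picked by rho, leaving out other members and predicted genes. For Ly6c2 they were Mmp25, a leukocyte metalloproteinase, Mtus1 and Slco4c1 (0.98 each), and 68 genes reached 0.9. For Cd14 they were Mmp8, the neutrophil collagenase, Il13ra1 and Sqor (0.98 each), among 53 such genes. Itgam had Abcd2 (0.96), Anxa3 and Ifitm6 (0.95 each) among 36. For Csf1r the list was Ankrd37 (0.98), Klhdc10 (0.96) and Mfsd14a (0.91) among 8.

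Nearest to Ccr2 were Wasl (0.96), Mir8114 (0.96) and Ndst2 (0.95) among 64 genes, and to F13a1 Bc1 (0.98), Atp6ap2 (0.96) and Srxn1 (0.95) among 119. Ms4a6c was closest to Fam220a (0.93) and to the complement genes C1qc and C1qb of macrophages (0.91 each) among 8. Fcgr1 was closest to Samd11 (0.98), Ubash3b (0.94) and Stab1, a scavenger receptor of macrophages (0.92), among 9. Klf4 had the fewest, with Clec4a3, a lectin receptor (0.94), and Tmem11 (0.90) at that level and Mrgpra2a next (0.87).

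Among 12 transcription factors of the monocyte lineage, 10 passed the filter, 4 were lower and 6 higher in Ifnar1 -/- AML and 0 passed the test (median log2 fold change 0.13). Without Ifnar1 -/- library 2, 9 of the 10 were lower (median -0.72). Spi1, which encodes PU.1, was at 508 CPM in Ifnar1 -/- library 2 and at 26.6 to 89.5 CPM in the other 10. Irf8, which directs progenitors towards monocytes and dendritic cells and is also active in B cells, was at 155 to 263 CPM in the libraries with high Ebf1 and at 0.664 to 7.37 CPM with low Ebf1. Id2 went the other way, at 79.2 to 196 CPM and 298 to 1653 CPM. Irf5, which drives inflammatory genes in macrophages, was at 119 CPM in Ifnar1 -/- library 2, at 83.8 to 106 CPM with high Ebf1 and at 11.2 to 26.4 CPM in the other 5. Of 10 ligands and partners of the members, 9 were tested: 6 were lower, 3 higher and 0 passed (median -0.33), and 7 of 9 were lower without Ifnar1 -/- library 2 (median -0.31).

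A list of 36 further monocyte and macrophage genes had 35 tested, of which 20 were lower and 15 higher, with 0 called (median -0.33). Without Ifnar1 -/- library 2, 32 of 35 were lower (median -1.18), with 0 called. Ccl6, a chemokine also made by granulocytes, was at 10932 CPM in that library and at most 801 CPM elsewhere, and S100a6 at 4257 and at most 1574 CPM. Lilrb4a, an inhibitory receptor, was highest in Ifnar1 +/- library 1 (2656 CPM). Thus 11 of 35 peaked in Ifnar1 -/- library 2. Of 5 tested relatives of Ly6c2, 2 were lower and 3 higher (median 0.31), and 3 were lower without Ifnar1 -/- library 2 (median -0.38), with Ly6e, Ly6a and Ly6d the most abundant. Of 7 tested Ms4a relatives, 6 were lower and 1 higher (median -0.47), and 5 were lower without that library (median -0.53), with Ms4a2, Ms4a1 and Ms4a3 the most abundant, and 0 of either list passed the test.

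Marker lists of other cells also differed between libraries. The 12 neutrophil markers, led by Ngp, Retnlg and S100a8, summed to 24.5 CPM in Ifnar1 -/- library 4, with 2 of them at 0 counts, and to 40224 CPM in Ifnar1 -/- library 2. These 2 libraries were also the lowest and the highest for Ly6c2 and Itgam. Of those markers 4 were lower and 8 higher (median 0.33), all 12 were lower without Ifnar1 -/- library 2 (median -0.76), and 0 were called. Of 10 eosinophil markers, led by Prg2, Alox15 and Ear2, all 10 were higher (median 3.90) and 8 were lower without that library (median -1.49). In that library the 9 members summed to 3055 CPM, against 12.1 to 399 CPM in the others. The part of these cells in the levels of the members was not tested.

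The other lists also had 0 called, and values without Ifnar1 -/- library 2 follow those with it. Mast cell and basophil markers (Cpa3, Fcer1a, Cma1) were lower in 8 of 8 (median -0.47) and in 6 of 8 (median -0.22). Primary granule markers (Mpo, Ms4a3, Prtn3) were lower in 3 of 5 (median -0.84) and in 5 of 5 (median -0.80). Dendritic markers (Cd74, Flt3, H2-Ab1) were lower in 4 of 7 in both fits (median -0.09 and -0.24), with Siglech at 0 in every library. T and NK markers (Gzmb, Nkg7, Lck) were lower in 3 of 5 in both (median -0.86 and -0.53). B-lineage markers (Ighm, Cd79a, Igll1) were lower in 9 of 10 (median -0.57) and in 8 of 10 (median -0.23). Megakaryocyte markers (Itga2b, Pf4, Gp1ba) were lower in 1 of 7 in both fits (median 0.34 and 0.62), and stem markers (Adgrg1, Ly6a, Kit) in 3 of 8 in both (median 0.24 and 0.53). Erythroid markers (Hbb-bs, Hba-a1, Hba-a2) were lower in 7 of 9 in both (median -2.37 and -2.44) and summed to 122466 CPM in Ifnar1 +/- library 6, where Ms4a6c and Fcgr1 were highest, against at most 12709 CPM elsewhere.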

How the data were processed

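RNA of 11 mouse AML samples was measured by bulk RNA sequencing. Per the labels' protocols, a Qiagen RNAeasy micro plus kit was used for extraction and a Clontech kit for the libraries. The authors deposited estimated counts for each gene, which need not be whole and carry no scaling between samples. DRAGEN and bcl2fastq are named, without version, in the submitters' processing notes. The sources used here do not give the genome build, the annotation or the strand setting of the counting.

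The table held 55774 rows, and 287 identical copies of repeated identifiers were dropped to leave 55487 genes. A symbol was found by Ensembl identifier for 55141 of them. Positions and exon words came from GENCODE M21 on GRCm38 and upstream sequences from RefSeq on GRCm38.p6. Estimated counts were rounded, filtered with filterByExpr by genotype and scaled with TMM factors. Genotype was tested on the whole table with edgeR 4.0.16 in R 4.3.3 (glmQLFit with robust=TRUE, two-sided quasi-likelihood F-test, Benjamini-Hochberg adjustment over 14521 genes, threshold 0.05). Fold changes are Ifnar1 -/- against Ifnar1 +/-, and each SE was derived as |log2 fold change| over the root of the F statistic. Before TMM scaling, a level of 3 counts corresponds to 0.0775 to 0.117 CPM, and this limit reflects counting alone. The TMM factor of Ifnar1 -/- library 2 was the lowest, 0.682, so the same counts give a higher scaled CPM there. In that library 2 counts of Klf4 were 0.103 CPM.

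The results were recomputed with DESeq2 1.42.0, limma voom (limma 3.58.1) with quality weights, other scaling, other filters, robust=FALSE, the replicate number as a block, the Ebf1 level as a covariate and leaving out each library. Groups by Ebf1 level were split at the widest gap in log2(CPM + 1) and got no test. Named genes were all members, the most abundant tested genes of each list (up to 4 for partners and transcription factors, up to 3 otherwise) and the 3 genes most like each member. Ly6c1 and Ebf1 were named by the same rule. Genes that share words with a member (Hmgxb3, Gm49368, BE692007, Ms4a6b) and Siglech, at 0 throughout, were named outside it, as were Il34, Tlr4 and Ccl2 for their roles. Ngp, Prg2 and Cpa3 were also named outside it in the correlations, after their values were seen. The members and lists were chosen with earlier results of these data known. Some genes recur across lists (Fcgr3, Fcgr4, Fcer1g, Ms4a2, Ms4a3, Ly6a), so the counts and medians of the lists are not independent.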

Additional observations from a re-analysis of the deposited data

Results flagged for a closer look

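Within a genotype, a library was looked at again where its gap to the nearest other library was large against the group's range (Dixon's test at the 95% level). Among the members 11 of 18 groups were flagged, in 8 of the 9 genes, all at their upper end. Chance flags about 1 in 20 groups where values are normal, but CPM values are skewed, and 15.1% of the groups of all genes tested were flagged. The members share libraries, so their flags are not independent.

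Ifnar1 -/- library 2 lay apart for Csf1r (274 CPM), Ly6c2 (1724 CPM), Itgam (931 CPM) and Cd14 (105 CPM). Ifnar1 +/- library 2 lay apart for Itgam (97.1 CPM) and Cd14 (188 CPM). Ccr2 was flagged in Ifnar1 +/- library 1 (97.8 CPM) and Ifnar1 -/- library 4 (32.8 CPM). Ms4a6c (13.8 CPM) and Fcgr1 (4.42 CPM) were flagged in Ifnar1 +/- library 6, and Klf4 (1.75 CPM) in Ifnar1 -/- library 3. F13a1 had no flag: its high Ifnar1 +/- values of 67.1 and 44.0 CPM lay near each other.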

How the results depend on the processing

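No member passed the test under any of the 19 alternatives run, and over all genes DESeq2 called 3 where the other 18 alternatives called 0. DESeq2 gave an adjusted p for 4 of the 9 members. Members lower in Ifnar1 -/- AML numbered 5, from 4 to 8 when single libraries were left out, with 8 only without Ifnar1 -/- library 2, and 2 under the filter of 5 CPM in 5 libraries. That filter removed Klf4, F13a1, Ms4a6c and Fcgr1, and it left 1 of the 2 members separated by Ebf1 level, which stayed at 2 when single libraries were left out. Log2 fold changes that turned sign in limma voom were those of Csf1r (-0.76), Ly6c2 (-1.52), Itgam (-0.51), Ccr2 (0.97), F13a1 (1.20) and Fcgr1 (0.25). With the replicate number as a block, Csf1r (-0.018), Ccr2 (0.048), Klf4 (-0.24), F13a1 (0.94) and Fcgr1 (0.74) turned, 4 members were lower and 0 were called. In that fit Ly6c2 was at 0.53, Itgam at 0.59 and Ms4a6c at -1.04. With the Ebf1 level as a covariate Klf4 turned to -0.12, while Csf1r was at 0.26, Ly6c2 at 2.54, Itgam at 1.54, F13a1 at -1.43 and Fcgr1 at -0.85. The labels give the numbers no shared source. Deviations of same-numbered libraries correlated at 0.52, 0.24, 0.62, -0.59 and 0.62 over the 2000 most variable genes, and 1 of 10 libraries correlated best with its own number, so the numbers were not taken as pairs. When single libraries were left out, log2 fold changes ran from -2.03 to 1.96 for Csf1r, -0.74 to 5.04 for Ly6c2, -1.01 to 3.90 for Itgam, -1.76 to 0.69 for Ccr2, -2.23 to 1.40 for Cd14, -0.97 to 0.41 for Klf4, -3.21 to -1.54 for F13a1, -2.96 to -1.62 for Ms4a6c and -1.28 to 0.92 for Fcgr1. Ms4a6c was the member that kept its sign in every alternative that gave it a value, but it shrank to -0.77 in limma voom. The cause of these changes was not tested. Depth limits Klf4, Ms4a6c and Fcgr1, with 2 or 3 counts in their lowest libraries, and Ly6c2 in Ifnar1 -/- library 4, with 1 count.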
